A study of Mus musculus with 6 samples.

Results

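Tumor-initiating cells (TICs) are the minority of tumor cells able to found a new tumor, and in mammary tissue they are recognised by a small set of surface proteins, enzymes and regulators. Expression of 10 genes used as such markers (Cd44, Cd24a, Ly6a, Prom1, Epcam, Kit, Bmi1, Aldh1a1, Aldh1a3 and Procr) was read in mock and p140Cap-expressing TuBo cells. The markers were taken by name, and all 10 were found among the 21960 genes of the deposited counts. Of these 10, 6 had enough reads for a test, and the other four (Ly6a, Prom1, Aldh1a1 and Procr) had at most 3 reads in any library.

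TuBo cells derive from a mammary carcinoma that arose in a BALB/c-MMTV-NeuT mouse, in which the MMTV promoter drives the activated rat oncogene NeuT in mammary epithelium, and they serve in the study as a model of HER2+ BC. RNA-Seq compared 3 mock libraries, whose genotype is labelled wt, with 3 p140Cap libraries, labelled as overexpressing p140Cap, and both groups carry the NeuT background. p140Cap cells were transduced with p140Cap cDNA in the retroviral vector pBabe-puro and selected with puromycin, and clones grown from single cells were pooled. For this retroviral step, the sources used here do not name a vector in mock cells. The labels give the tissue as breast tumor, name the line Balb-NeuT and speak of mice in one place and of cell lines in another. The samples are taken here to be TuBo cells, as in the paper.

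The markers fall into several kinds. CD44, a receptor for the matrix polymer hyaluronan, and CD24, a small mucin-like protein held in the membrane by a lipid anchor, are used as a pair, since cells with CD44 and without CD24 are enriched for TICs in several breast cancer models. Sca-1, encoded by Ly6a, is a lipid-anchored member of the Ly6 family and marks progenitors in mouse tissue. The study stained it on TuBo cells for flow cytometry and reported fewer positive cells with p140Cap. Epcam encodes an epithelial adhesion protein, Kit the receptor of stem cell factor that is found on luminal progenitors, Prom1 a pentaspan membrane protein, and Procr the protein C receptor. Aldh1a1 and Aldh1a3 encode aldehyde dehydrogenases that make retinoic acid and can give the activity scored in ALDH assays. Bmi1 encodes a subunit of polycomb repressive complex 1, which silences genes through histone H2A ubiquitination and sustains self-renewal.

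Depth differed between the groups, with totals between 33058719 and 75506562 reads on genes in mock cells and between 13770385 and 15364850 in p140Cap cells. Srcin1, which encodes p140Cap, was at 15.0 ± 1.96 CPM (reads scaled to library size with TMM factors) in mock and 2343 ± 153 CPM in p140Cap libraries (SD, n = 3 each), as the labels say. The luminal epithelial markers summed to between 5343 and 5820 CPM in the 6 libraries, with 7 of 8 above 1 CPM in both groups and Krt19 below it. These luminal markers did not move together, since 3 of the 7 tested were higher and 2 were lower in p140Cap cells (35.2% and 35.9% over all genes tested). Krt7 fell by 0.84 on the log2 scale (803 to 447 CPM, edgeR adjusted p = 9.45e-10) and Elf3 rose by 0.54 (33.1 to 48.2 CPM, edgeR adjusted p = 1.34e-06). The part of these shifts in the marker results was not tested. Of the 10 haematopoietic markers none reached 1 CPM, and Ptprc, Cd3e, Adgre1 and Lyz2 had no read in any library, with sums of 0.679 to 0.732 CPM in mock and 0.545 to 0.808 CPM in p140Cap cells. The 7 endothelial markers summed to 0.270 to 0.553 CPM in mock and 0.613 to 0.923 CPM in p140Cap cells, with Kdr and Cldn5 at 0 reads. The 7 basal and myoepithelial markers summed to at most 1.19 CPM. The 7 fibroblast markers summed to 9.97 to 10.5 CPM in mock and 11.3 to 14.1 CPM in p140Cap cells, with Pdgfra and Col1a1 above 1 CPM in both groups, while Col1a2, Col3a1, Dcn and Lum were at 0 reads. Col1a1 was called higher in p140Cap cells (log2 fold change 0.80, edgeR adjusted p = 0.000244) and Pdgfra was not called. Pecam1, the only endothelial marker tested, was called higher (1.25, edgeR adjusted p = 0.0133) from 40 reads over the mock and 28 over the p140Cap libraries.

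For orientation, the 250 bases before the first listed start of 4 markers are shown, chosen as the marker with the largest decrease (Bmi1), the one with the largest increase (Kit), the hyaluronan receptor of the CD44/CD24 pair (Cd44) and a marker with almost no reads (Aldh1a1). Sequences are those of RefSeq on GRCm38.p6, written 5′ to 3′ on the strand of the gene. They lie at chr2:18676768-18677017 on the plus strand for Bmi1, at chr5:75574737-75574986 on the plus strand for Kit, at chr2:102901666-102901915 on the minus strand for Cd44 and at chr19:20492333-20492582 on the plus strand for Aldh1a1. Capitals mark the GC box GGGCGG, the E-box CACGTG bound by Myc and related factors, and the core CTTTGA of the TCF/LEF motif, each searched on both strands. Neighbouring GC boxes overlap in Bmi1.
Bmi1: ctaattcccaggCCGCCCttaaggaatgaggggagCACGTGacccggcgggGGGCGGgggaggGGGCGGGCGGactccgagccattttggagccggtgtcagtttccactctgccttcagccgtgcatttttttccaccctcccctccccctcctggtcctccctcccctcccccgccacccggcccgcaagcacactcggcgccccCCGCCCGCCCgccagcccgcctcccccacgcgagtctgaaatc
Kit: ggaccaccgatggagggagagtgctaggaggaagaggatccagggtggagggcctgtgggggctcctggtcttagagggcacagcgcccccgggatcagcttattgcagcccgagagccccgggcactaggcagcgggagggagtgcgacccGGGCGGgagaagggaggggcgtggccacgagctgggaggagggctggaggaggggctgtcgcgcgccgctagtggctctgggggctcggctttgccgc
Cd44: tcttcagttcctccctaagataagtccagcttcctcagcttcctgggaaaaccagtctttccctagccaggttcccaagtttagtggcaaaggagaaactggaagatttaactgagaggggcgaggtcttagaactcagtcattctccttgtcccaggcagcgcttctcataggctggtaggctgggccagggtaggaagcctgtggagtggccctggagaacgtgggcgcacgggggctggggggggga
Aldh1a1: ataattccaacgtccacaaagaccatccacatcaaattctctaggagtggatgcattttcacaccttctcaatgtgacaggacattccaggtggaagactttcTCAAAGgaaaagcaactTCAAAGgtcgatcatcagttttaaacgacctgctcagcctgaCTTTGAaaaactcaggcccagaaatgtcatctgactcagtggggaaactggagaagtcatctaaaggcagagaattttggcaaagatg
The Bmi1 window held 6 GC boxes and 1 E-box, whose first base lies 215 bases before the start. The Kit window held 1 GC box and that of Cd44 held none of the motifs searched, including the TATA box TATAAA. The Aldh1a1 window held 3 TCF/LEF cores, which begin 147, 130 and 88 bases before the start. The second listed start of Aldh1a1 had none, nor did the windows of Prom1 and Procr, the other markers with almost no reads for which a window was found. Of the 32851 promoter windows of this length in the reference, 32.7% held a GC box, 6.02% an E-box, 13.8% a TCF/LEF core and 12.4% a TATA box. A match of letters is a description and no evidence of binding.

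Of the 6 markers tested, 3 (Cd44, Epcam and Kit) were higher and 2 (Bmi1 and Aldh1a3) were lower in p140Cap than in mock cells, with a threshold of 0.05 on the adjusted p, and Cd24a was not called (quasi-likelihood test of edgeR, Benjamini-Hochberg adjustment over all 11800 genes tested). In the same test, 71.1% of all genes were called, 35.2% as higher and 35.9% as lower, so 5 called markers of 6 is a share near that background. The median log2 fold change of the 6 markers was 0.19, and that of all genes tested was -0.00. None of the 6 changed by as much as 1 log2 unit, while 9.97% of all genes tested were called with a change of at least that size. In bulk RNA, fewer cells with a transcript and less of it per cell cannot be told apart.

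**Figure D1:**
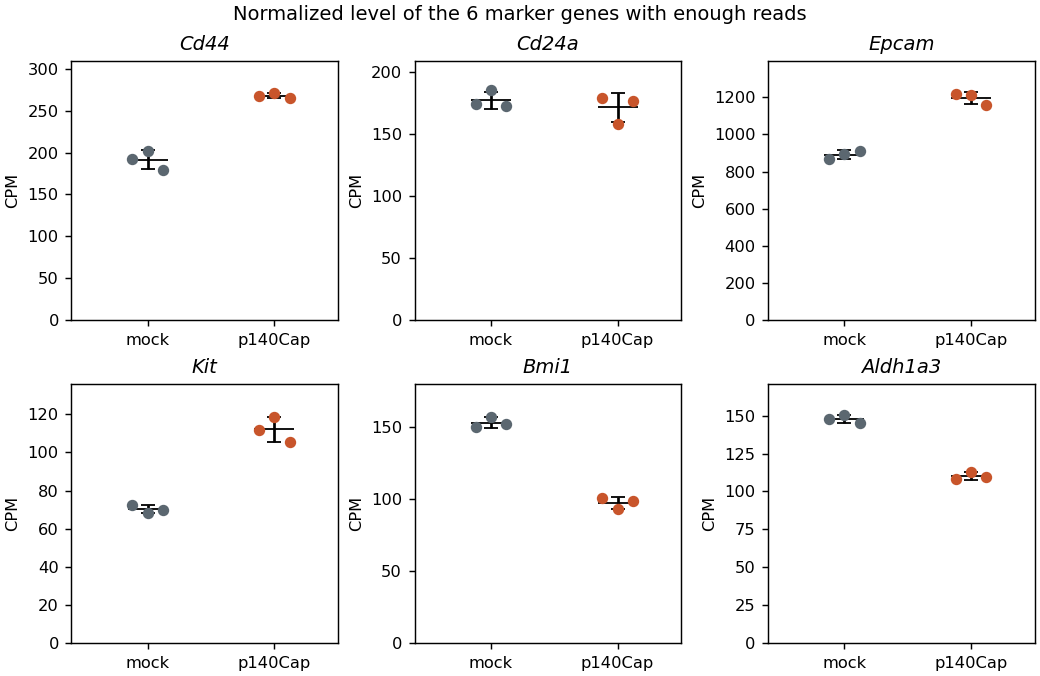
CPM (reads scaled to library size with TMM factors, vertical axes starting at 0) of the 6 marker genes that were tested, in 3 mock and 3 p140Cap libraries. Points are libraries, and bars give the mean and SD. The p140Cap libraries lie above all mock libraries for Cd44, Epcam and Kit, and below them for Bmi1 and Aldh1a3. For Cd24a the groups overlap, with p140Cap replicate 2 below every mock library.

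Among the surface receptors, Cd44 (ENSMUSG00000005087) is a protein-coding gene of chromosome 2 (102811141 to 102901669, minus strand of GRCm38.p6). It was at 192, 202 and 179 CPM in the mock libraries and at 267, 272 and 265 CPM in the p140Cap libraries. All p140Cap libraries were above all mock libraries, as they were, in one direction or the other, for 73.4% of all genes tested. The log2 fold change was 0.49 (edgeR adjusted p = 2.45e-07, with SE 0.05), or 1.40-fold. A larger absolute change was fitted for 32.9% of all genes tested.

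Cd24a (ENSMUSG00000047139; chromosome 10, 43579169 to 43584265, plus strand of GRCm38.p6) was at 174, 185 and 172 CPM in mock and at 179, 158 and 176 CPM in p140Cap cells. The groups overlapped, and the lowest value was that of p140Cap replicate 2. The log2 fold change was -0.05 (edgeR adjusted p = 0.437, with SE 0.05), and it was 0.0051 without that library (edgeR adjusted p = 0.934). The Cd24a transcript shares a stretch of 218 bases at 96.8% identity with the annotated gene Gm6212 and overlaps Mtres1 on the other strand. How reads that match several genes were counted is not stated.

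The pair was also compared within each library, where scaling cancels. The log2 ratio of Cd44 to Cd24a CPM was 0.15, 0.13 and 0.059 in the mock libraries and 0.58, 0.78 and 0.59 in the p140Cap libraries. The ratio was thus higher in each p140Cap library, by 0.54 on average, or 1.45-fold (means 0.11 ± 0.047 and 0.65 ± 0.12, SD, n = 3 each). A two-sided exact permutation test gave p = 0.1, the smallest it can give for 3 against 3 libraries. When any single library was left out, the difference lay between 0.47 and 0.57. These are ratios of bulk RNA and do not count cells with CD44 and without CD24.

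**Figure D2:**
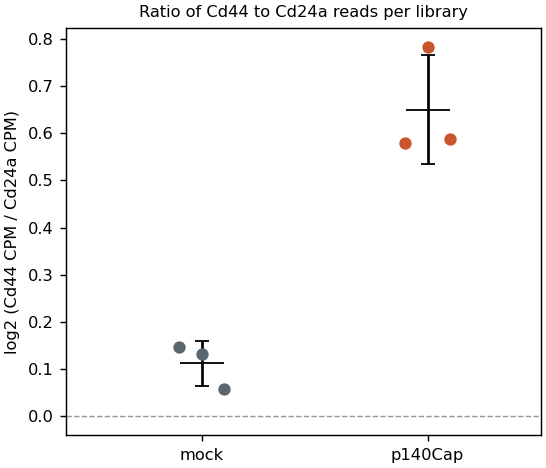
Log2 ratio of Cd44 CPM to Cd24a CPM in each of 3 mock and 3 p140Cap libraries, without correction for gene length. Points are libraries, bars give the mean and SD, and the dashed line marks equal CPM. Mock libraries lie between 0.059 and 0.15 and p140Cap libraries between 0.58 and 0.78.

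Genes of the hyaluronan axis around CD44 were read beside it. Of 14 such genes found by symbol, 13 were tested. In p140Cap cells 7 were higher and 2 were lower (35.2% and 35.9% over all genes tested), with a median log2 fold change of 0.27. Hyal1, which encodes a lysosomal hyaluronidase, rose from 9.01 ± 0.848 to 29.3 ± 1.52 CPM (SD, n = 3 each), a log2 fold change of 1.71 (edgeR adjusted p = 1.74e-11, with SE 0.08). Has3, a hyaluronan synthase gene, rose by 0.69 on the log2 scale (edgeR adjusted p = 0.000145) and Cemip, which encodes a protein needed for hyaluronan breakdown outside the cell, by 0.54 (edgeR adjusted p = 0.00548). The call of Cemip was lost in a random thinning of all libraries to the smallest total (0.31, edgeR adjusted p = 0.167) and was kept in 7 of 10 such draws. Esrp1 and Esrp2, named after their values were seen, encode the splicing regulators that favour the long epithelial CD44 isoforms. Their log2 fold changes were 0.15 (edgeR adjusted p = 0.012) and 0.28 (edgeR adjusted p = 0.000111), and the counts per gene do not separate CD44 isoforms.

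Epcam (ENSMUSG00000045394; chromosome 17, 87635979 to 87651127, plus strand of GRCm38.p6) had the most reads of the markers, with 867, 897 and 910 CPM in mock and 1218, 1211 and 1158 CPM in p140Cap cells. Every p140Cap library was above every mock library. Its log2 fold change was 0.42 (edgeR adjusted p = 4.35e-07, with SE 0.05), or 1.34-fold.

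Of 15 genes whose products bind, cleave or accompany EpCAM, all were tested. Of these, 8 were higher and 1 was lower (35.2% and 35.9% over all genes tested), with a median log2 fold change of 0.12. The one that fell was Cldn7, a claudin that binds EpCAM, from 222 ± 11.8 to 166 ± 11.5 CPM (SD, n = 3 each; log2 fold change -0.41, edgeR adjusted p = 5.78e-06). Cldn4, another claudin gene, rose by 0.49 on the log2 scale (edgeR adjusted p = 1.95e-06). Ncstn, which encodes a subunit of the γ-secretase that cuts EpCAM, rose by 0.42 (edgeR adjusted p = 9.41e-07).

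Kit (ENSMUSG00000005672; chromosome 5, 75574987 to 75656722, plus strand of GRCm38.p6) was at 72.5, 68.2 and 69.8 CPM in mock and at 112, 119 and 106 CPM in p140Cap cells. The groups were far apart, and the lowest p140Cap library was well above the highest mock library. The log2 fold change was 0.67 (edgeR adjusted p = 8.02e-09, with SE 0.05), or 1.60-fold, the largest increase among the markers. A larger absolute change was fitted for 20.5% of all genes tested.

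The gene of the KIT ligand, Kitl, named after its values were seen, was at 109 ± 7.68 CPM in mock and 87.8 ± 4.99 CPM in p140Cap cells (SD, n = 3 each). It fell by 0.31 on the log2 scale (edgeR adjusted p = 0.000195, with SE 0.06). Of 11 genes of KIT signalling, 7 were higher and 2 were lower (35.2% and 35.9% over all genes tested). Their median log2 fold change was 0.38. The Src-family kinase genes Lyn and Fyn rose by 0.65 (edgeR adjusted p = 6.31e-08) and 0.60 (edgeR adjusted p = 3.24e-08), and Gab2, an adaptor gene, by 0.58 (edgeR adjusted p = 5.75e-06).

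Bmi1 (ENSMUSG00000026739; chromosome 2, 18677018 to 18686629, plus strand of GRCm38.p6) had the largest decrease among the markers. It was at 150, 158 and 152 CPM in the mock libraries and at 101, 92.9 and 98.5 CPM in the p140Cap libraries. All p140Cap libraries were below all mock libraries. The log2 fold change was -0.65 (edgeR adjusted p = 4.47e-09, with SE 0.05), so that the level was 1.57 times higher in mock cells, and a larger absolute change was fitted for 21.7% of all genes tested. The Bmi1 transcript shares 2658 bases at 97.0% identity with Gm5946, which is not among the counted genes, so reads of the 2 may not have been told apart.

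The other genes of polycomb repressive complex 1 showed no common direction. Of 18, all tested, 5 were lower and 4 were higher (35.9% and 35.2% over all genes tested), and 9 were not called. Their median log2 fold change was -0.02. Pcgf5 and Pcgf6 encode subunits that take the place of BMI1 in variant complexes, and they fell by 1.11 on the log2 scale each (adjusted p = 1.02e-10 and adjusted p = 5.35e-10, edgeR). Both lie on chromosome 19, whose 424 tested genes had a median log2 fold change of -0.34, where the medians of the 19 other chromosomes lay between -0.07 and 0.06. The part of the chromosome in these 2 values was not tested. Cbx7, which encodes a subunit that reads methylated histone H3, rose by 1.05 (edgeR adjusted p = 7.3e-08). Cdkn2a, the cell cycle inhibitor gene that BMI1 is best known to silence, had 0 reads in all 6 libraries, which allows up to 0.0201 CPM in mock and 0.0690 CPM in p140Cap cells (3 reads over the group, counting error only).

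Of the aldehyde dehydrogenase markers, Aldh1a3 (ENSMUSG00000015134; chromosome 7, 66390892 to 66427477, minus strand of GRCm38.p6) was at 148, 150 and 145 CPM in mock and at 108, 113 and 110 CPM in p140Cap cells. The groups did not overlap, with p140Cap cells lower. The log2 fold change was -0.42 (edgeR adjusted p = 3.76e-07, with SE 0.05), so that the level was 1.34 times higher in mock cells. Per kilobase of exon, Aldh1a3 made up between 99.6% and 99.9% of the summed CPM of Aldh1a1, Aldh1a2, Aldh1a3 and Aldh1a7 in every library.

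Aldh1a1 (ENSMUSG00000053279; chromosome 19, 20492583 to 20643463, plus strand of GRCm38.p6) was nearly absent, with 2, 3 and 3 reads in mock libraries against 0, 0 and 2 reads in p140Cap libraries. Pooled over the libraries of a group, the level in p140Cap cells was 0.860 times that in mock cells (0.0890 to 4.31 as exact 95% interval), so no difference was detectable at this depth. Intervals and limits here cover counting error only. Aldh1a7, a rodent copy that shares 2084 bases with Aldh1a1 at 89.2% identity and lies on the same chromosome, had 31, 15 and 17 reads in mock and 1, 1 and 3 reads in p140Cap libraries. It was too rare for the test, and its pooled level in p140Cap cells was 0.273 times that in mock cells (95% exact counting interval 0.0857 to 0.672).

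Of 25 genes of the ALDH family and of retinoid metabolism, 18 were tested. Of these, 10 were higher and 3 were lower (35.2% and 35.9% over all genes tested), with a median log2 fold change of 0.24. Cyp26b1, which encodes an enzyme that degrades retinoic acid, rose from 19.5 ± 1.75 to 50.3 ± 7.87 CPM (SD, n = 3 each), a log2 fold change of 1.37 (edgeR adjusted p = 1.34e-09, with SE 0.09). Stra6, the gene of a receptor for retinol uptake, fell by 1.83 on the log2 scale (edgeR adjusted p = 3.47e-06, with SE 0.24). Its level went from 2.59 ± 0.328 to 0.744 ± 0.214 CPM (SD, n = 3 each), with 398 reads over the mock and 32 over the p140Cap libraries. Aldh18a1, which encodes an enzyme of proline synthesis, fell by 0.98 (edgeR adjusted p = 4.29e-10) and lies on chromosome 19. Among genes of retinoic acid receptors, named after their values were seen, Rara rose by 0.56 (edgeR adjusted p = 1.46e-06) while Rarb fell by 0.51 (edgeR adjusted p = 2.96e-06).

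Ly6a (ENSMUSG00000075602; chromosome 15, 74994877 to 74998031, minus strand of GRCm38.p6), which encodes Sca-1, had 2 reads in mock replicate 1 and 0 reads in each of the other five libraries. Over the pooled mock libraries the 2 reads correspond to 0.0134 CPM, with an exact Poisson 95% interval of 0.00162 to 0.0483 CPM, and the 0 reads in p140Cap cells allow up to 0.0690 CPM (3 reads over the group). No fold change is given from so few reads. With no filter on low counts the gene was tested and not called (edgeR adjusted p = 0.526). By flow cytometry, the paper reports Sca-1 protein on a part of TuBo cells, a part that was smaller with p140Cap. That is a measure of protein on single cells, which the bulk RNA counts here do not give.

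The stretch around Ly6a was as empty. Between Them6 and Zfp41, the nearest genes on either side with at least 20 reads over all libraries, lie 20 genes with Ly6a itself included. Of these, 18 are of the Ly6 family and its relatives, and 17 had no read in any library. Over that stretch, 3 reads were counted in mock, among them the 2 of Ly6a, and 2 in p140Cap cells. Ly6e, which is widely expressed in mouse tissue, had 0 reads in 5 of the libraries and 2 reads in p140Cap replicate 3. Them6 had 424, 229 and 169 reads in mock and 12, 14 and 14 reads in p140Cap libraries, and Zfp41 had 957, 536 and 431 reads in mock and 170, 164 and 143 reads in p140Cap libraries. The closest counted relatives of the Ly6a transcript, Ly6g and Ly6c1, share 83.7% and 85.1% identity with it over 953 and 873 bases and had 0 reads. Whether transcripts are absent here or were lost in the alignment and counting was not tested.

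**Figure D3:**
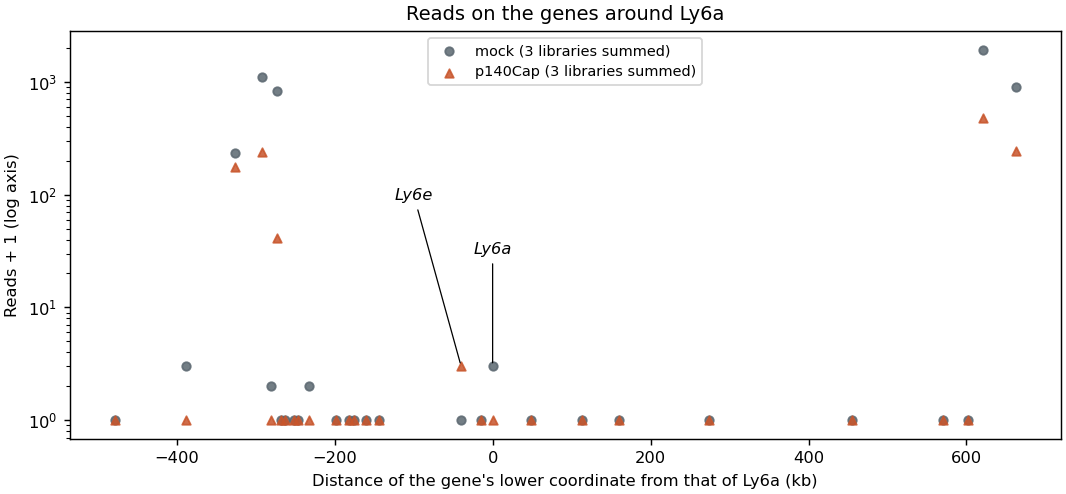
Reads summed over 3 mock libraries (circles) and 3 p140Cap libraries (triangles), plus 1, on a log axis, for the counted genes within 700 kb of Ly6a, against the distance of each gene's lower coordinate from that of Ly6a. A run of genes on both sides of Ly6a has no more than 2 reads in a group, between Them6 on the lower side and Zfp41 on the upper side.

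Procr (ENSMUSG00000027611; chromosome 2, 155751125 to 155755478, plus strand of GRCm38.p6) had 1 read in mock replicate 3 and 0 reads in the other five libraries. The exact Poisson 95% interval of its pooled level in mock cells reached up to 0.0372 CPM, and the 0 reads in p140Cap cells allow up to 0.0690 CPM. Of 9 genes of the protein C and thrombin pathway, 3 were tested. F3, the gene of tissue factor, was at 278 ± 1.15 CPM in mock and 252 ± 5.16 CPM in p140Cap cells (SD, n = 3 each), a log2 fold change of -0.14 (edgeR adjusted p = 0.00889). F2rl1, which encodes a protease-activated receptor, had a log2 fold change of -0.20 (edgeR adjusted p = 0.0151), a call that was lost without mock replicate 1 (-0.15, edgeR adjusted p = 0.0943), without p140Cap replicate 3 (-0.14, edgeR adjusted p = 0.101) and in the same thinning (-0.15, edgeR adjusted p = 0.0751), and kept in 4 of 10 draws. Thbd, the gene of thrombomodulin, with which the protein C receptor acts on endothelium, had 0 reads in mock cells and 1 in p140Cap cells.

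Prom1 (ENSMUSG00000029086; chromosome 5, 43993621 to 44102047, minus strand of GRCm38.p6), which encodes CD133, had 1, 0 and 1 reads in mock libraries against 1 read in each p140Cap library. The pooled ratio of p140Cap to mock cells was 5.16 (0.591 to 61.8 as exact 95% interval), so no difference was detectable. Its relative Prom2 was well expressed, at 65.6 ± 0.188 CPM in mock and 56.4 ± 3.90 CPM in p140Cap cells (SD, n = 3 each), and fell by 0.22 on the log2 scale (edgeR adjusted p = 0.00213). Of 11 relatives of Ly6a and Prom1, 2 were tested, 1 lower (Prom2) and 1 higher. The higher one was Lypd3, of the Ly6 domain family, which was below the level set for naming genes and is named after its values were seen. It rose from 0.569 to 1.68 CPM (85 reads over the mock and 73 over the p140Cap libraries, log2 fold change 1.55, edgeR adjusted p = 2.02e-05).

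To compare markers with each other, CPM was divided by the length of all annotated exons of the gene, which gives CPM per kilobase. In mock cells Epcam led with 345 ± 8.53, followed by Cd24a with 68.5 ± 2.65, Bmi1 with 33.8 ± 0.851, Cd44 with 28.2 ± 1.70, Aldh1a3 with 26.0 ± 0.467 and Kit with 7.41 ± 0.234 CPM per kilobase (SD, n = 3). In p140Cap cells Epcam was at 462 ± 12.6, Cd24a at 66.2 ± 4.47, Cd44 at 39.6 ± 0.470, Bmi1 at 21.5 ± 0.881, Aldh1a3 at 19.4 ± 0.422 and Kit at 11.8 ± 0.696 CPM per kilobase (SD, n = 3). In this measure Bmi1 and Cd44 changed places. The lowest mock value of Bmi1 (33.1) was above the highest of Cd44 (29.9), while the lowest p140Cap value of Cd44 (39.2) was above the highest of Bmi1 (22.2). The mock order depends on the exon lengths used (6776 bases for Cd44, 4534 for Bmi1), and the isoforms expressed were not measured. In CPM without length, Cd44 was above Bmi1 in both groups (191 and 153 in mock, 268 and 97.3 in p140Cap cells). Among neighbours in the order, Cd44 and Aldh1a3 nearly met in mock cells, where the lowest value of Cd44 was 26.5 and the highest of Aldh1a3 was 26.4. The remaining neighbours of these 6 did not overlap, whereas the ranges of Aldh1a1, Procr, Ly6a and Prom1 overlapped in mock cells. Epcam stood above 99.5% and Kit above 58.4% of all tested genes with a known length in mock cells.

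Of 23 other genes used as markers of mammary stem and progenitor cells, 17 were tested. In p140Cap cells 7 were lower and 7 higher (35.9% and 35.2% over all genes tested), with a median log2 fold change of -0.09. Nrp1, which encodes a co-receptor of VEGF and semaphorins, had the largest change of any gene in the lists around the markers, from 5.53 ± 0.563 to 0.681 ± 0.280 CPM (SD, n = 3 each). Its log2 fold change was -3.01 (edgeR adjusted p = 3.00e-09, with SE 0.22), with 843 reads over the mock and 30 over the p140Cap libraries. Lgr6, an R-spondin receptor gene, fell by 1.45 on the log2 scale (edgeR adjusted p = 7.45e-10, with SE 0.09). Cd14, the gene of a lipopolysaccharide co-receptor found on luminal progenitors, rose from 101 ± 3.64 to 247 ± 5.70 CPM (log2 fold change 1.29, edgeR adjusted p = 1.43e-12, with SE 0.05). The integrin subunits most used to sort mammary stem cells, named after their values were seen, are CD49f and CD29. Itga6 (CD49f) rose by 0.58 (edgeR adjusted p = 3.72e-08) and Itgb1 (CD29) by 0.11 (edgeR adjusted p = 0.0334).

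Over the 8 lists of related genes, 97 of the 126 genes found were tested, 45 were higher and 23 were lower. This is 70.1% called, near the 71.1% of all genes tested. Their median log2 fold change was 0.11.

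**Figure D4:**
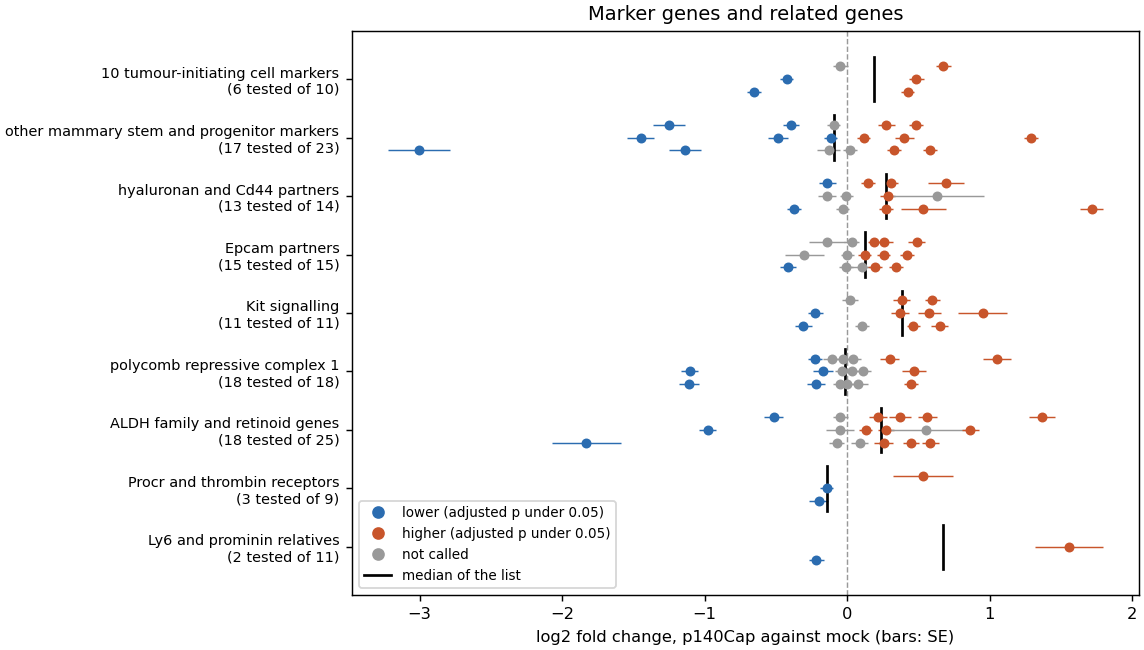
Log2 fold change of p140Cap against mock cells, with SE as horizontal bars, for the tested genes among the 10 TIC markers and the 8 lists of related genes. Each point is a gene, coloured by its call in edgeR's quasi-likelihood test, and black ticks mark the median of each list. Points lie on both sides of 0 in every list, and the marker genes lie between -0.65 and 0.67.

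The marker with the smallest p was Bmi1. Over the 6 libraries, the genes whose log2 CPM followed it most closely were Bzw2, Eif4a1 and Zwilch (Pearson r of 1.00 each over 11799 genes compared). This is a description of 2 groups of libraries, in which 2256 genes reached an r above 0.95.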

How the data were processed

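Stranded, poly(A)-selected libraries of 3 mock and 3 p140Cap TuBo samples were sequenced and processed with docker4seq tools. The submitters' processing notes name STAR 2.5, RSEM and mm10, while the paper names GRCm39. The authors deposited whole-number counts of reads per gene and library, not normalized, and no source used here says whether they are rounded RSEM estimates.

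In R 4.3.3, edgeR 4.0.16 was used for TMM factors, for filterByExpr by group and for a quasi-likelihood test of p140Cap against mock without covariates. P-values were adjusted by Benjamini and Hochberg over all 11800 genes tested, with a threshold of 0.05. SE is the absolute log2 fold change over the square root of F. Members and lists were chosen with earlier results of these data known. All markers were named, together with up to 3 called genes of each related list with the largest change and a mean log2 CPM of at least 1, Srcin1, Cdkn2a, Aldh1a7 and Ly6 relatives. For markers with too few reads, ratios of pooled reads carry exact (Clopper-Pearson) 95% intervals, levels from 1 or 2 pooled reads carry exact Poisson 95% intervals, and the limit for 0 reads is 3 reads over a group.

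Positions and promoters are those of RefSeq on GRCm38.p6, the RefSeq build that corresponds to mm10. Promoters were found for 7 of the 10 markers. Exon lengths, chromosomes and overlapping genes were taken by Ensembl identifier from GENCODE on GRCm39, without its coordinates, which 98.6% of all genes matched. Transcripts were compared with BLAST+ 2.17.0. The scripts were tested on simulated data in which only a small part of the genes changed, unlike the data here, where 71.1% were called. The mean chi-square of 2 libraries of a group lay between 1.75 and 10.7, where sampling noise gives 1, so no library was a copy of another. The sources do not say how separately the replicate cultures were grown, so p-values measure the spread between these libraries.

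Alternatives were RLE factors, DESeq2 1.42.0, limma-voom (limma 3.58.1), testing without the filter, a minimum of 10 reads per library, libraries thinned to the smallest total, each library left out, and the replicate number as a block.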

Additional observations from a re-analysis of the deposited data

How the results depend on the processing

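Cd44, Epcam, Kit, Bmi1 and Aldh1a3 were called in the same direction under all 13 alternatives listed with the methods, with log2 fold changes of 0.44 to 0.53 for Cd44, 0.39 to 0.44 for Epcam, 0.63 to 0.71 for Kit, -0.68 to -0.62 for Bmi1 and -0.45 to -0.41 for Aldh1a3. Cd24a was called under none. Its log2 fold change lay between -0.084 and 0.0051 with each library left out, and it turned from -0.048 to 0.0051 without p140Cap replicate 2. With the replicate number as a block, 2 markers were lower and 3 higher, and over all genes 4054 were lower and 3980 higher. The same numbers in both groups did not pair the libraries, since the correlations of deviations of same-numbered libraries lay at -0.03, -0.11 and -0.06, and no mock library correlated best with its own number. The Cd44 to Cd24a difference as mean of the 3 numbered pairs was 0.54 (replicate block, exact sign-flip p = 0.25, the smallest possible). Ly6a, Prom1, Aldh1a1 and Procr were tested only with no filter on low counts and were not called there (edgeR, adjusted p between 0.235 and 0.878). The lower depth of p140Cap libraries limits what can be said of these 4 genes. Thinning is a random draw, so 10 draws, among them the one counted there, were compared after the data were seen. Cd44, Epcam, Kit, Bmi1 and Aldh1a3 were called in all 10 and Cd24a in none (adjusted p between 0.297 and 0.698), while Cemip was called in 7 (0.31 to 0.75 on the log2 scale) and F2rl1 in 4 (-0.26 to -0.13).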
